A study of Homo sapiens with 4 samples.

Results

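The 33 genes described here encode amino acid transporters of the plasma membrane and the lysosome. They were chosen by name, from 8 groups set by solute carrier (SLC) family and function, out of the 20809 targets that were measured in each library, and all 33 had a target. The cells were MDA-MB-468, an established line of triple-negative breast cancer (TNBC), in its drug-resistant form (MDA-MB-468/R, 2 libraries) and its wild-type form (MDA-MB-468/WT, 2 libraries). MDA-MB-468/R is a subline selected over 6 months with adriamycin (doxorubicin), cytoxan (cyclophosphamide) and taxotere (docetaxel), and MDA-MB-468/WT is the untreated parental line. The paper adds a further month of recovery after the selection, and does not say when the RNA was taken. A protocol field shared by all samples names the drugs for MDA-MB-468/WT too, but its treatment field reads none. Both groups come from 1 established line and 1 selected subline, so that a difference between these cultures and an effect of the drugs cannot be told apart. No source used here says whether the libraries of a group came from separate cultures, so the spread behind each p-value is that of these libraries alone and may be technical.

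Amino acids cannot cross the lipid bilayer at a useful rate and enter cells through carriers that differ in substrate and in driving force. Some carriers use the sodium gradient to concentrate amino acids, others exchange an internal amino acid for an external one, and those of the lysosome release the products of protein breakdown. Tumor cells depend on them for glutamine, leucine and cystine, which feed protein synthesis, growth signalling through mTORC1 and the synthesis of glutathione, the thiol that detoxifies peroxides and many drugs.

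The values are reads of 1 short amplicon per gene, given as reads per 1000000 targeted reads (RPM) on a log2 scale after 1 RPM was added. Each library held an estimated 6835313 to 7981947 reads, worked out from the spacing of the low values. Such reads compare 1 gene between samples, and the RPM of different genes are not ranked here. A sum of reads over a culture cannot tell fewer cells with a transcript from less transcript per cell. The epithelial markers EPCAM, KRT7, KRT8, KRT18, KRT19, CDH1 and EGFR summed to 11416 and 11648 RPM in drug-resistant cells and to 12844 and 12852 RPM in WT cells, with no marker under 78.3 RPM, while the hormone receptor genes ESR1 and PGR were at or under 3.23 RPM. Of the leukocyte markers PTPRC and CD3E had no read, and CD68, which encodes a lysosomal membrane protein, made nearly all of the list's sum of 12.6 to 16 RPM in drug-resistant cells and 25.4 to 26 RPM in WT cells. The endothelial list summed to 3 to 3.13 RPM in drug-resistant cells and 8.46 to 9.50 RPM in WT cells. In it VWF was at 0 and KDR was lower in drug-resistant cells. CDH5 had 0 and 1 reads in drug-resistant cells against 18 and 22 reads in WT cells. The fibroblast list summed to 12 to 14.8 RPM in drug-resistant cells and 17.3 to 17.9 RPM in WT cells. Most of this sum came from COL1A1, which was lower in drug-resistant cells without passing. DCN and PDGFRB were at 0, and LUM had at most 2 reads. COL1A2 and PDGFRA, with at most 6 reads in any library and not tested, had more reads in drug-resistant cells. The red cell gene HBB had 3 reads in 1 drug-resistant library and none elsewhere.

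Of the 33 transporter genes, 23 reached 10 reads in 2 or more libraries and were tested, and all 23 reached 10 reads in every library. SLC6A6, SLC6A14 and SLC1A4 were lower and SLC3A2 was higher in drug-resistant cells, with 0.05 as the limit of limma's adjusted p, and the other 19 did not pass. These 4 of 23 are 17.4% of the tested members, where 16.0% of all 12118 genes tested passed, 5.36% as higher and 10.6% as lower. The share is near the background and is no result about the family. None of the 23 was a DEG (that adjusted p together with a 2.5-fold change or more), a call that 3.26% of all tested genes received. With limma-voom on the recovered reads there was also no DEG among them. Without R replicate 1, SLC6A6 became 1 DEG, with a log2 fold change of -1.40. The median log2 fold change was 0.08 over the 23 members and -0.03 over all genes tested, and the median absolute change was 0.21 and 0.24.

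**Figure D1:**
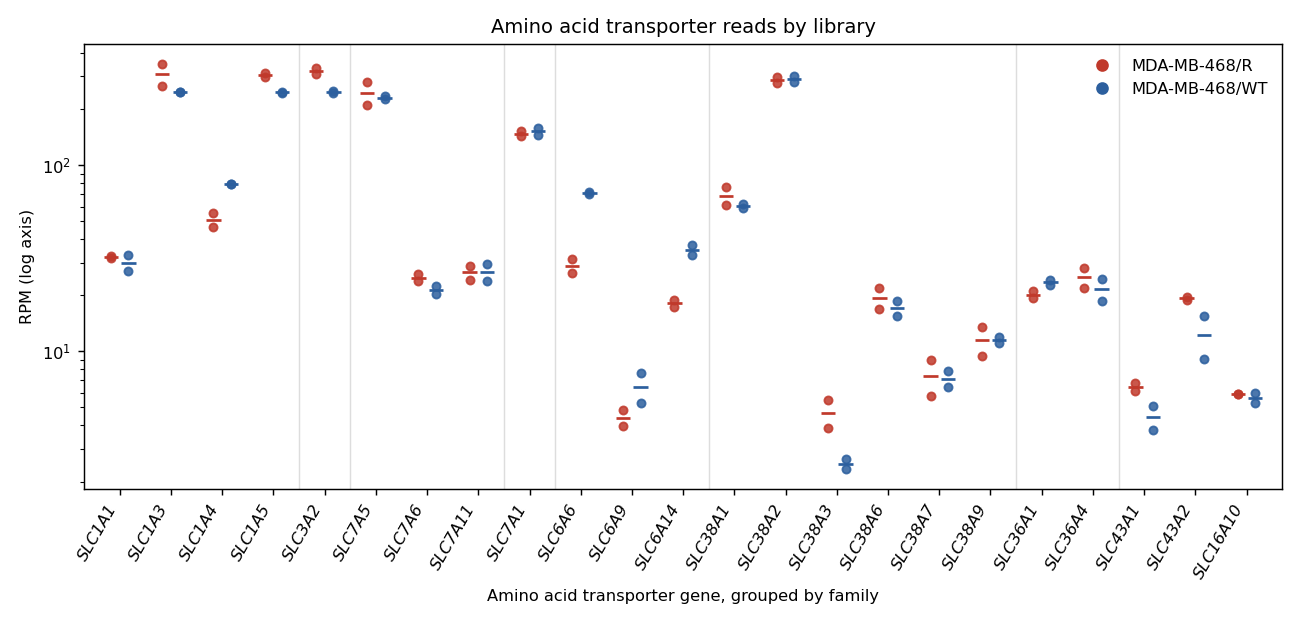
RPM on a log axis for the 23 tested amino acid transporters on the x axis, grouped by family, with 1 point per library and a line at the mean of 2 libraries. Drug-resistant cells (red) stand left of WT cells (blue), and the red and blue points are farthest apart for SLC6A6, at 26.3 and 31.2 RPM in drug-resistant cells and 70.0 and 72.0 RPM in WT cells.

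The libraries of the groups did not overlap for 12 of the 23 tested members (52.2%), against 58.3% of all tested genes. Both drug-resistant libraries lay above both WT libraries for 7 members, where the background was 26.1%, and below them for 5, where it was 32.2%. Over the 23 members the SD of the log2 difference between libraries was 0.278 in drug-resistant cells and 0.252 in WT cells. The standard errors of the fold changes ran between 0.0953 and 0.242, with the lowest for SLC1A5 and the highest for SLC38A7.

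The promoters of SLC3A2, SLC1A4 and SLC6A14 are shown first, since these genes passed the test. The set of RefSeq (GRCh38.p14) promoters used here, taken as 250 bases before to 50 after the annotated start, covered 26 of the 33 members. It held no window for SLC1A2, SLC3A1, SLC6A6, SLC7A2, SLC7A3, SLC7A11 and SLC38A3, so these genes were not searched. The windows were searched on both strands for TGATGNAA, the core of the element bound by the amino acid response factor ATF4, and for TGACNNNGC, the core of the antioxidant response element bound by NRF2, which also takes in some AP-1 sites. Capitals mark the matches. The windows lie at chr11:62881449-62881748, chr2:64988229-64988528 and chrX:116436356-116436655, all on the plus strand.
SLC3A2: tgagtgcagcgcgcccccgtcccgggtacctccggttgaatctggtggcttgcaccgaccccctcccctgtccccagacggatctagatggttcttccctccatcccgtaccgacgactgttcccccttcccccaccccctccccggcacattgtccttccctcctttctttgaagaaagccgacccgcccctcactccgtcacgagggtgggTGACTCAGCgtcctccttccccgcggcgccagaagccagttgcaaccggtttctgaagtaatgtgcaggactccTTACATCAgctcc
SLC1A4: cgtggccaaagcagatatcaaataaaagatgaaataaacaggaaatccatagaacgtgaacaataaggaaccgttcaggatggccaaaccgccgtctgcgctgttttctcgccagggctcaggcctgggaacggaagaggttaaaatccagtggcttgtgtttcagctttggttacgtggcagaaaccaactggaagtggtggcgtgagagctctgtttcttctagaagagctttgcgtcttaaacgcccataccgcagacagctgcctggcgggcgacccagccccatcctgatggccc
SLC6A14: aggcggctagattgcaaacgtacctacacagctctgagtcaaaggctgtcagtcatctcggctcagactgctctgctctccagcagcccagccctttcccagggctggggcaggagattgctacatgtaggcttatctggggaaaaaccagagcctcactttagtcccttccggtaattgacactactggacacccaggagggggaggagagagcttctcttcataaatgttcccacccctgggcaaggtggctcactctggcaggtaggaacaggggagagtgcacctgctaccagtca

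SLC3A2 held TGACNNNGC on the plus strand from base -37 and TGATGNAA on the minus strand from base 38 after the start, and the windows of SLC1A4 and SLC6A14 held neither. TGATGNAA was present in 4 of the 26 members (15.4%) and in 3.62% of 35116 promoters of 300 bases, and TGACNNNGC in 5 members (19.2%) and in 13.3% of these promoters. These promoters were not limited to the genes measured or tested here, and whether the shares differ was not tested. The other members with TGATGNAA were SLC1A3, SLC7A1 and SLC38A1, whose 40 bases around the match are given in the direction of the gene, with the match in capitals. They lie at chr5:36596352-36596391 on the plus strand and at chr13:29595658-29595697 and chr12:46266497-46266536 on the minus strand.
SLC1A3: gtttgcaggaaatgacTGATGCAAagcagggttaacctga
SLC7A1: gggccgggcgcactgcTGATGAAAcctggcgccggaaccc
SLC38A1: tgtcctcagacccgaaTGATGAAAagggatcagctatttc

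Of the 4 genes with this match, SLC3A2 passed the test as higher, with a log2 fold change of 0.37, and SLC1A3 (0.31), SLC38A1 (0.17) and SLC7A1 (-0.04) did not pass. A match of letters is a description and shows no binding, and no match says only that these letters are not in the window.

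SLC6A6 and SLC6A14, of the sodium- and chloride-coupled SLC6 carriers, had the largest absolute log2 fold changes of the tested members. SLC6A6, the carrier of taurine and beta-alanine, had 31.2 and 26.3 RPM in drug-resistant cells, against 70.0 and 72.0 RPM in WT cells. Both drug-resistant libraries lay far below both WT libraries, with a mean of 28.8 ± 3.49 RPM in drug-resistant cells and 71.0 ± 1.41 RPM in WT cells (SD, n = 2 each) and an RPM ratio of 0.405. The log2 fold change was -1.28 (standard error 0.134, 95% interval -1.59 to -0.97, adjusted p = 0.00112 from limma), just short of the 2.5-fold threshold. SLC6A14, which takes up all neutral and cationic amino acids by coupling to sodium and chloride, had 18.8 and 17.4 RPM in drug-resistant cells, against 37.1 and 32.8 RPM in WT cells. The groups did not overlap, and the log2 fold change was -0.91 (standard error 0.146, 95% interval -1.25 to -0.57, adjusted p = 0.00704 from limma). SLC6A14 lies on chromosome X, where 133 of 357 tested genes with a chromosome in RefSeq (37.3%) passed as lower, with a median log2 fold change of -0.45. The part of this chromosome-wide difference in SLC6A14 was not tested. SLC6A9, the glycine carrier GLYT1, had 4.86 and 3.96 RPM in drug-resistant cells, against 5.28 and 7.63 RPM in WT cells, and did not pass (log2 fold change -0.45, 95% interval -0.99 to 0.09, adjusted p = 0.234 from limma).

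The SLC1 family holds the glutamate carriers SLC1A1, SLC1A2 and SLC1A3 and the exchangers of small neutral amino acids SLC1A4 and SLC1A5. SLC1A4 (ASCT1), which exchanges alanine, serine, cysteine and threonine, had 55.1 and 46.5 RPM in drug-resistant cells, against 79.4 and 79.4 RPM in WT cells. It was lower in drug-resistant cells without overlap, with a log2 fold change of -0.64 (standard error 0.127, 95% interval -0.94 to -0.34, adjusted p = 0.0154 from limma). SLC1A5 (ASCT2), which also exchanges glutamine, had 297 and 314 RPM in drug-resistant cells, against 248 and 245 RPM in WT cells. Its libraries did not overlap either, in the other direction, but it did not pass (log2 fold change 0.31, 95% interval 0.09 to 0.53, adjusted p = 0.0684 from limma). The adjusted p from limma was 0.0346 without R replicate 1 and 0.0440 without R replicate 2, but those fits hold 1 drug-resistant library and take their spread from the WT pair alone, which was the closer pair (chi-squared per gene 1.67, against 12.3 for the drug-resistant pair). SLC1A3 (EAAT1), a high-affinity carrier of glutamate and aspartate, had 349 and 268 RPM in drug-resistant cells, against 246 and 248 RPM in WT cells. R replicate 1 stood well above the other libraries, and the log2 fold change of 0.31 (95% interval -0.01 to 0.62, adjusted p = 0.175 from limma) became 0.50 without R replicate 2, with an adjusted p of 0.0284, and 0.12 without R replicate 1, with an adjusted p of 0.118, in fits of the same limit. SLC1A1 (EAAT3), a carrier of glutamate and cysteine, had 31.9 and 32.4 RPM in drug-resistant cells, against 32.8 and 27.2 RPM in WT cells, with overlapping libraries and a log2 fold change of 0.10 (95% interval -0.24 to 0.44). SLC1A2, the main glutamate carrier of astrocytes, had 2 and 2 reads in drug-resistant cells and 0 and 2 reads in WT cells.

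**Figure D2:**
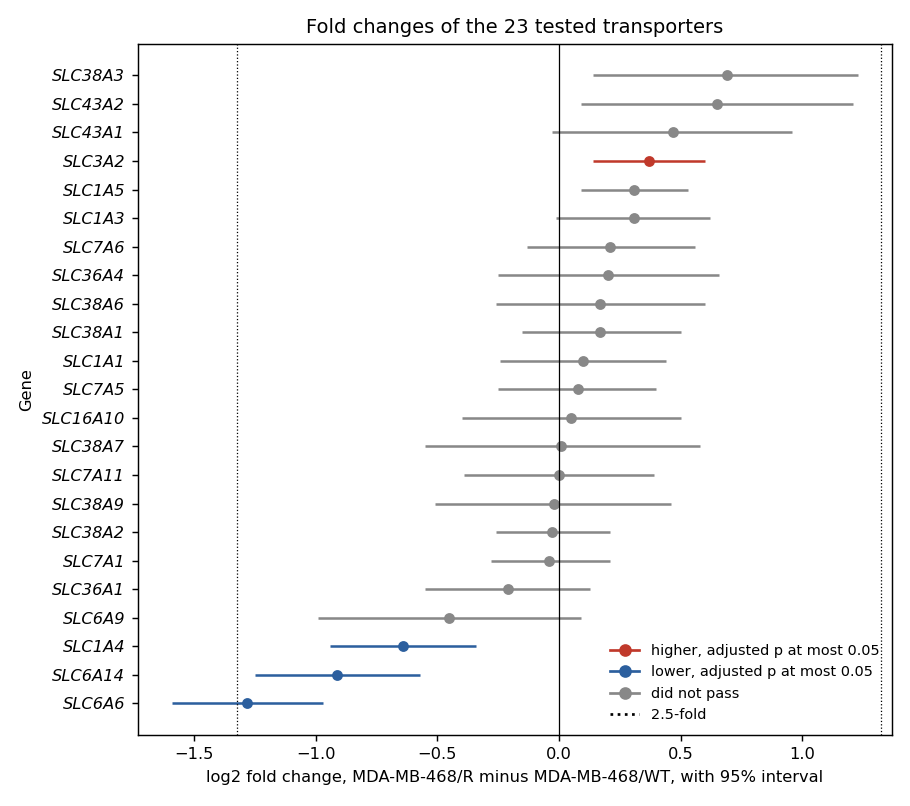
Log2 fold changes of the 23 tested transporters (drug-resistant minus WT) on the x axis with 1 gene per line on the y axis, bars for the 95% interval from limma and dotted lines at 2.5-fold. The values run between -1.28 for SLC6A6 and 0.69 for SLC38A3, and SLC3A2 (red), SLC1A4, SLC6A14 and SLC6A6 (blue) passed.

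Heteromeric transporters pair a heavy chain, which brings the complex to the membrane, with a light chain, which carries the substrate. SLC3A2 (4F2hc, CD98), the heavy chain of the light chains SLC7A5, SLC7A6, SLC7A7, SLC7A8, SLC7A10 and SLC7A11, had 310 and 332 RPM in drug-resistant cells, against 245 and 251 RPM in WT cells. The groups did not overlap, and the mean was 321 ± 15.8 RPM in drug-resistant cells and 248 ± 4.88 RPM in WT cells (SD, n = 2 each). The log2 fold change was 0.37 (standard error 0.0969, 95% interval 0.14 to 0.60, adjusted p = 0.0410 from limma). This call lay close to the threshold, and was lost with no filter on low values (adjusted p = 0.0507 from limma) and without the mean trend in limma (0.122).

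None of the 3 tested light chains passed, and whether their changes differed from that of SLC3A2 was not tested. SLC7A5 (LAT1), which exchanges glutamine for leucine and other large neutral amino acids, had 279 and 211 RPM in drug-resistant cells, against 235 and 227 RPM in WT cells. The WT libraries lay between those of drug-resistant cells, and the log2 fold change was 0.08 (95% interval -0.25 to 0.40). SLC7A11 (xCT), which takes up cystine for glutathione synthesis in exchange for glutamate, had 24.3 and 28.9 RPM in drug-resistant cells, against 23.9 and 29.3 RPM in WT cells. Its group means on the log2 scale were equal, with a log2 fold change of 0.00 and a 95% interval of -0.39 to 0.39, which leaves room for a fold between 0.765 and 1.31. SLC7A6 (y+LAT2), which exports cationic amino acids in exchange for neutral ones, had 25.9 and 23.9 RPM in drug-resistant cells, against 20.3 and 22.4 RPM in WT cells, without overlap and with a log2 fold change of 0.21 (95% interval -0.13 to 0.56). The other light chains were at the limit of detection in both groups. SLC7A7 (y+LAT1) had 5 and 1 reads in drug-resistant cells and 5 and 1 in WT cells, and SLC7A8 (LAT2) had 4 and 2 reads in drug-resistant cells and 0 and 1 in WT cells. SLC7A10, a small neutral exchanger of the brain, had 0 reads in drug-resistant cells and 0 and 2 in WT cells. The kidney pair SLC3A1 and SLC7A9, the heavy and the light chain that take up cystine from urine, had 1 read and 0 reads in drug-resistant cells, against 0 reads and 2 reads in WT cells.

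The SLC7 carriers of arginine and lysine work without a heavy chain. SLC7A1 (CAT-1) had 143 and 153 RPM in drug-resistant cells, against 145 and 159 RPM in WT cells. Its libraries overlapped, and the log2 fold change of -0.04 had a 95% interval of -0.28 to 0.21, or a fold between 0.821 and 1.16. SLC7A2 (CAT-2) had 5 and 8 reads in drug-resistant cells and 3 and 4 reads in WT cells, a ratio of 1.92 with a 95% counting interval of 0.712 to 5.68. SLC7A3 (CAT-3), on chromosome X, had 0 reads in each library.

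The SLC38 family (SNATs) imports small neutral amino acids, chiefly glutamine and alanine, with sodium. Of the 8 SLC38 genes among the members described here, 6 were tested and none passed. SLC38A2 (SNAT2), which is known to rise when cells are starved of amino acids, had 275 and 299 RPM in drug-resistant cells, against 303 and 281 RPM in WT cells. The libraries overlapped, and the log2 fold change of -0.03 had a 95% interval of -0.26 to 0.21. SLC38A1 (SNAT1), a glutamine importer, had 76.2 and 60.8 RPM in drug-resistant cells, against 58.7 and 61.7 RPM in WT cells, with a log2 fold change of 0.17 (95% interval -0.15 to 0.50). SLC38A3 (SNAT3), which exchanges glutamine with protons and can run in both directions, had 3.86 and 5.45 RPM in drug-resistant cells, against 2.34 and 2.63 RPM in WT cells. This was the highest log2 fold change of the members, 0.69 (95% interval 0.14 to 1.23), from 27 and 40 reads in drug-resistant cells and 16 and 21 in WT cells, and it did not pass (adjusted p = 0.0892 from limma). SLC38A6, whose substrates are less well known, had 17 and 21.8 RPM in drug-resistant cells, against 18.7 and 15.4 RPM in WT cells. The libraries of SLC38A6 overlapped, with a log2 fold change of 0.17 (95% interval -0.26 to 0.60). SLC38A4, a SNAT of the liver, had 1 and 0 reads in drug-resistant cells and 3 and 6 reads in WT cells, a ratio of 0.115 with a 95% counting interval of 0.00262 to 0.829. SLC38A5 (SNAT5), on chromosome X, had 0 and 1 reads in drug-resistant cells and none in WT cells.

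Of the members known from the lysosome and of the proton-coupled SLC36 carriers, none passed. SLC38A9, which reports arginine in the lysosome to mTORC1 and exports leucine and glutamine, had 9.41 and 13.6 RPM in drug-resistant cells, against 11.1 and 12 RPM in WT cells. The WT libraries lay between those of drug-resistant cells (log2 fold change -0.02, 95% interval -0.51 to 0.46). SLC38A7 (SNAT7), which exports glutamine and asparagine from lysosomes, had 8.99 and 5.73 RPM in drug-resistant cells, against 7.88 and 6.41 RPM in WT cells (log2 fold change 0.01, 95% interval -0.55 to 0.58). SLC36A1 (PAT1), a proton-coupled carrier of small amino acids, had 19.3 and 21.0 RPM in drug-resistant cells, against 22.8 and 24.1 RPM in WT cells. It was lower in both drug-resistant libraries without passing (log2 fold change -0.21, 95% interval -0.55 to 0.13). SLC36A4 (PAT4), a related carrier of tryptophan and proline, had 21.9 and 28.2 RPM in drug-resistant cells, against 18.7 and 24.6 RPM in WT cells, with overlapping libraries (log2 fold change 0.20, 95% interval -0.25 to 0.66).

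The facilitators carry amino acids down their gradient with no coupled ion. SLC43A2 (LAT4), a carrier of leucine and other large neutral amino acids, had 19.5 and 19.0 RPM in drug-resistant cells, against 15.4 and 9.13 RPM in WT cells. The groups did not overlap, but the WT libraries lay far apart, and the log2 fold change of 0.65 (95% interval 0.09 to 1.21, adjusted p = 0.110 from limma) was 0.30 without WT replicate 2 and 1 without WT replicate 1. Its relative SLC43A1 (LAT3) had 6.73 and 6.16 RPM in drug-resistant cells, against 5.11 and 3.76 RPM in WT cells, again without overlap and without passing (log2 fold change 0.47, 95% interval -0.03 to 0.96). SLC16A10 (TAT1), a carrier of aromatic amino acids, had 5.87 RPM in each drug-resistant library, against 5.28 and 6.01 RPM in WT cells (log2 fold change 0.05, 95% interval -0.40 to 0.50).

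The remaining 10 members were too low to test, with at most 8 reads in any library. Of these, 6 had at most 3 reads in each library, and 3 reads correspond to 0.409 to 0.428 RPM in drug-resistant cells and 0.376 to 0.439 RPM in WT cells. A difference below that level was not detectable at this depth, and counting error is all that these limits and intervals take in, since amplified reads are not independent molecules.

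The 4 passing members kept their direction in each alternative of processing that was run. The 3 lower calls held under all 8 alternatives that kept the 4 libraries. They also passed without R replicate 1 or R replicate 2, where the spread comes from the closer WT pair alone and a pass says little. They were lost without WT replicate 1 or WT replicate 2, when the spread is estimated from the 2 drug-resistant libraries alone. The adjusted p from limma was then 0.105 and 0.111 for SLC6A6, 0.235 and 0.173 for SLC6A14, and 0.298 and 0.299 for SLC1A4. For SLC3A2 it was 0.484 and 0.419.

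**Figure D3:**
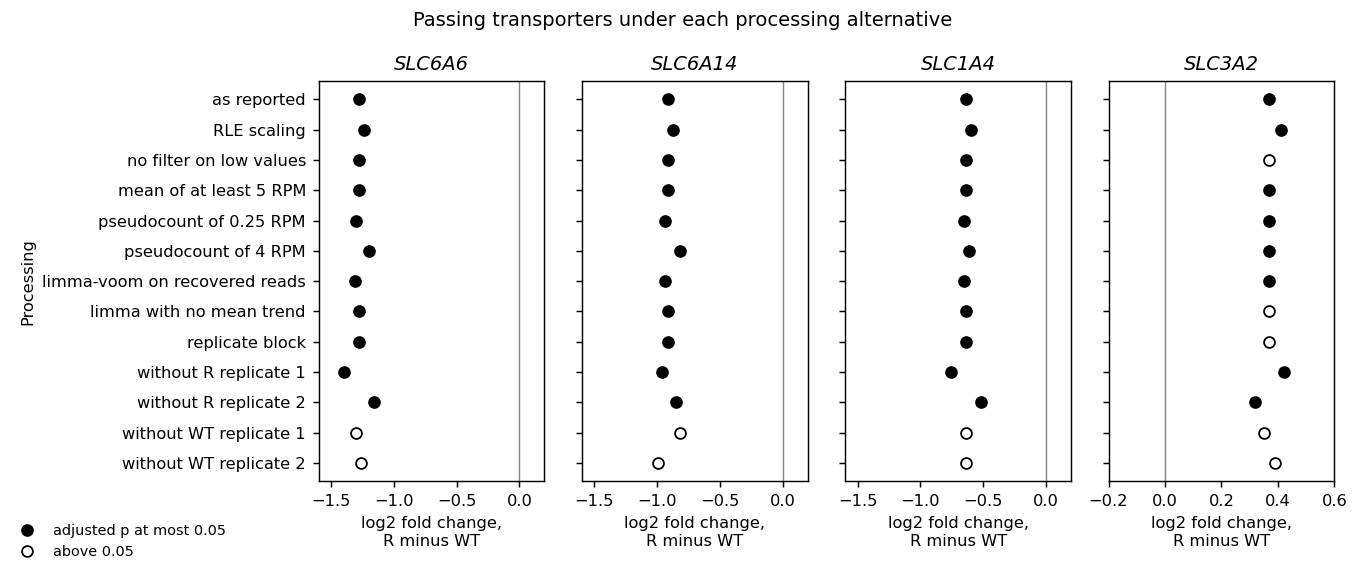
Log2 fold changes (drug-resistant minus WT) on the x axis of the 4 passing transporters under each processing listed on the y axis, with filled points where the adjusted p was at most 0.05. SLC6A6 stayed between -1.40 and -1.16 and SLC3A2 between 0.32 and 0.42, and the points without a WT library are open for all 4 genes.

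Of 30 further amino acid transporters, 15 were tested, of which 2 passed as lower and none as higher, with a median log2 fold change of -0.05. The share of 13.3% is under the 16.0% of all tested genes and is no result about the list. SLC6A17, a vesicular carrier of neutral amino acids in neurons, had 9.85 and 6.16 RPM in drug-resistant cells, against 17.1 and 19.5 RPM in WT cells (log2 fold change -1.13 with a standard error of 0.229 and, from limma, an adjusted p of 0.0166). SLC6A20, a proline carrier, had 4 and 7 reads in drug-resistant cells and 16 and 18 reads in WT cells, and passed the filter on low values through WT cells alone, so that it could only be called as lower and its call is not read as a result. None of the 8 tested carriers of the mitochondrion and none of the 3 of the lysosome passed. Among 29 genes of mTORC1 amino acid sensing, all tested, 3 were lower and 1 was higher (13.8%, again under the 16.0% of all tested genes), with a median of -0.01. RRAGD, 1 of the Rag GTPases that recruit mTORC1 to the lysosome, had 3 and 2.32 RPM in drug-resistant cells, against 29.9 and 28.9 RPM in WT cells. It was a DEG with a log2 fold change of -3.06 (with 0.184 as its standard error and an adjusted p of 1.37e-04 from limma), while its paralogs RRAGA, RRAGB and RRAGC did not pass.

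FNIP2, a partner of the Rag regulator FLCN, had 22.3 and 30.1 RPM in drug-resistant cells, against 46.5 and 44.9 RPM in WT cells (log2 fold change -0.80). The leucine sensor SESN2 had 20 and 21.5 RPM in drug-resistant cells, against 29.7 and 30.1 RPM in WT cells (-0.51), and its paralog SESN3 15.3 and 13.4 RPM in drug-resistant cells, against 6.31 and 7.28 RPM in WT cells (0.98). SESN2 and SESN3 thus moved in opposite directions, with adjusted p-values from limma of 0.0462, close to the threshold, and 0.0119. The groups did not overlap for either gene, as for 58.3% of all tested genes. Of 17 tested enzymes of glutamine, cystine and glutathione metabolism, 3 were higher and 1 was lower, with a median of 0.18. Their share of 23.5% stands beside 16.0% of all tested genes, of which 5.36% were higher and 10.6% lower, and whether it differs was not tested. The glutaminase GLS2 had 8.85 and 12.2 RPM in drug-resistant cells, against 4.24 and 3.99 RPM in WT cells (log2 fold change 1.16). Glutamine synthetase, GLUL, had 132 and 87.0 RPM in drug-resistant cells, against 67.6 and 62.1 RPM in WT cells (0.72). GPX4, which uses glutathione to reduce lipid peroxides, had 295 and 220 RPM in drug-resistant cells, against 167 and 144 RPM in WT cells (0.72). CTH, which makes cysteine from cystathionine, had 4.13 and 2.32 RPM in drug-resistant cells, against 7.46 and 7.28 RPM in WT cells (-1.02). With 1 library left out, RRAGD kept its call (highest adjusted p = 0.0432 from limma), whereas the other 9 genes of these lists each lost it without WT replicate 1 and without WT replicate 2, with highest values of 0.224 to 0.427. Of these 9, 8 also lost it with a drug-resistant library left out, namely SESN2, SESN3, GLUL and GPX4 without R replicate 1, SLC6A17, GLS2 and CTH without R replicate 2, and SLC6A20 without either. With all 4 libraries, SESN2 lost its call under RLE scaling and SESN2, GLUL and CTH with no filter on low values. SESN2, GLUL and GPX4 lost it with no mean trend, and GLUL with a mean of at least 5 RPM.

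**Figure D4:**
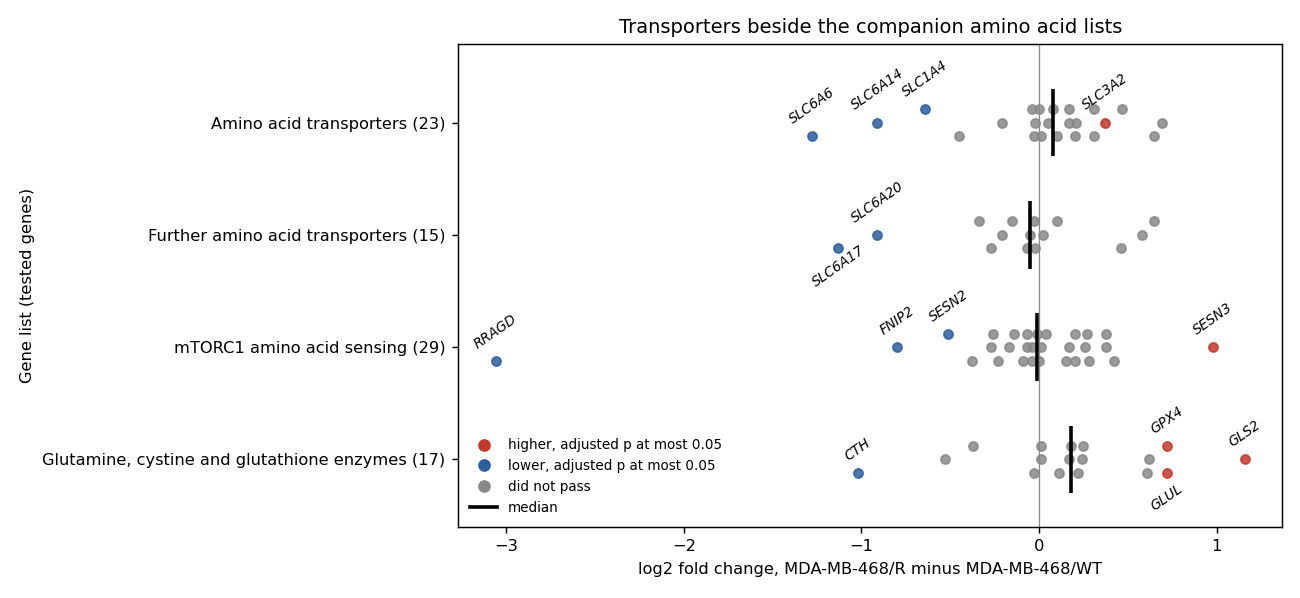
Log2 fold changes (drug-resistant minus WT) on the x axis for the tested genes of the 4 lists on the y axis, with 1 point per gene, named where it passed, and a bar at the median. The medians lie between -0.05 and 0.18, and RRAGD stands apart at -3.06.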

How the data were processed

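RNA of 2 drug-resistant and 2 WT libraries of MDA-MB-468 was measured with the Ion AmpliSeq Transcriptome kit. Reads were aligned by the authors to the kit's transcripts with the Torrent Mapping Alignment Program, per the paper's methods, while Bowtie2, bedtools and edgeR appear, with no version, in the submitters' processing notes. A genome build is not given in the sources used here. The authors deposited 1 log2 value per target, with 2 decimals, and undoing the log2 gave a total near 1000000 in each library, that is RPM plus 1. Groups and replicate numbers came from the sample titles, and no batch or date is given in the sources used here.

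Whole reads were recovered from the spacing of the low values (all values of up to 20 reads were whole within 0.1 reads). The deposited log2 values were fitted with limma 3.58.1 (R 4.3.3, empirical Bayes with a mean trend, 2 residual and 5.4 prior degrees of freedom) on the 12118 genes with at least 10 reads in at least 2 libraries. P-values were adjusted over all of them by the Benjamini-Hochberg method. limma stood in for the paper's DEGSeq, with its thresholds. Between replicates the chi-squared per gene was 12.3 for the drug-resistant pair and 1.67 for the WT pair, where sampling noise gives about 1. Chromosomes and promoters came from RefSeq (GRCh38.p14), and 10840 tested genes (89.5%) matched by symbol. The scripts were tested on simulated data, where 97% of genes with a 3-fold change and 100% with a 6-fold change were recovered. Smaller changes, such as those of all tested members, were not simulated, so this says nothing about how often they are found. The members and lists were chosen with earlier results of these data known. All members were described, and companion genes were named where they passed. Alternatives were RLE scaling, other filters and pseudocounts, limma-voom, no mean trend, a replicate block and each library left out.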

Additional observations from a re-analysis of the deposited data

How the results depend on the processing

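Of the 23 tested members, each kept its side of the threshold under RLE scaling, both pseudocounts (0.25 and 4 RPM) and limma-voom, and so did the 22 left with a mean of at least 5 RPM. The count of higher members, 1 as reported, was 0 with no filter on low values, 0 with no mean trend and 0 with the replicate block, and 0 to 3 with 1 library left out. The count of lower members was 0 to 3 and that of DEGs 0 to 1 with 1 library left out. The median log2 fold change of the members was 0.11 under RLE scaling, which moved the median of all genes by 0.0319, and 0.05 to 0.11 with 1 library left out. Among the further transporters 2 genes passed as reported, 3 under RLE scaling, 1 with a mean of at least 5 RPM, 1 with the replicate block and 0 to 2 with 1 library left out. Among the enzymes 4 passed as reported, 2 with no filter, 2 with no mean trend and 0 to 5 with 1 library left out, and 3 with a mean of at least 5 RPM. Among the sensing genes 4 passed as reported, 3 under RLE scaling, no filter, no mean trend or the replicate block, and 1 to 6 with 1 library left out. The spread then comes from 1 pair alone, the R pair without a WT library and the WT pair without an R library. The share of all tested genes that passed under each alternative is not given here. These counts are therefore not read as results about the lists.

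With the replicate number as a block, the call of SLC3A2 (adjusted p = 0.0915 from limma) was lost and no other member changed, while SESN2 (0.0749) and SLC6A20 (0.0666) of the other lists lost theirs. The correlation of replicate 1 minus replicate 2 between the groups was 0.00868, so same-numbered libraries showed no shared shift. Whether they were prepared or run together is not given in the sources used here. With 2 libraries per group, members of a few RPM had 95% intervals that span more than a fold of 1.5. Some well-read members passed that span too, such as SLC7A5 (fold between 0.839 and 1.32) and SLC1A3 (0.992 and 1.54). Members with at most 3 reads could not be compared.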

Other observations

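SLC1A6 (EAAT4), a glutamate carrier known chiefly from Purkinje neurons of the cerebellum, had 351 and 273 RPM in drug-resistant cells and 349 and 342 RPM in WT cells. It was read at 2003 to 2726 reads per library. Of the 17 further carriers grouped here under the plasma membrane, 13 were too low to test. That group is a loose one, since it also holds the vesicular carrier SLC6A17. Its libraries overlapped, and its log2 fold change of -0.15 did not pass (95% interval -0.46 to 0.15, adjusted p = 0.472 from limma). The amplicon position was not analysed here, and this gene was chosen after its values were seen.

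The glutathione cycle around the cystine carrier SLC7A11 is given here from genes chosen after their values were seen. GCLC and GCLM, the subunits of the enzyme that starts glutathione synthesis, had log2 fold changes of 0.11 and -0.03 and did not pass, as did glutathione synthetase GSS (0.22) and CHAC1, which breaks glutathione down (-0.53, adjusted p = 0.0813 from limma). GSR (0.18) and GGT1 (0.62, 95% interval 0.03 to 1.22, adjusted p = 0.144 from limma) did not pass either. GPX4 was the 1 gene of this group that passed as higher and CTH the 1 that passed as lower, with the limits given above for both calls.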
